A study of Rattus norvegicus with 29 samples.

Results

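The miR-181 family was measured in plasma of 29 rats. Its members were chosen by name, as the miRNAs of the deposited count table whose name, after the rat prefix rno-, has the stem miR-181a, miR-181b, miR-181c or miR-181d, from any gene copy and either hairpin arm. The names gave 10 of 754 miRNAs, 4 of them from the 5p arm of their hairpin and 6 from the 3p arm, and all 10 passed the filter on low counts that left 744 miRNAs for testing. The members are rno-miR-181a-5p, rno-miR-181b-5p, rno-miR-181c-5p, rno-miR-181d-5p, rno-miR-181a-1-3p, rno-miR-181a-2-3p, rno-miR-181b-1-3p, rno-miR-181b-2-3p, rno-miR-181c-3p and rno-miR-181d-3p, written from here without the prefix.

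The study looked in plasma for miRNAs that tell which rats go on to epilepsy after a traumatic brain injury (TBI), and its rats were adult male Sprague-Dawley rats held at UEF, Monash or UCLA. Injured rats received a lateral fluid-percussion injury, a pressure pulse on the exposed dura, and sham-operated rats had the same anesthesia and surgery and no impact. Injured rats are split by video-EEG in the seventh month into those without epilepsy (TBI−) and those with it (TBI+). UEF held 4 sham, 4 TBI− and 4 TBI+ rats, Monash 3, 3 and 2, and UCLA 3, 3 and 3, so that 10 sham, 10 TBI− and 9 TBI+ rats were compared. Blood came from the tail vein into EDTA tubes under isoflurane at 48 h after injury or sham surgery, and each rat was 1 small RNA library. Site stands for many things at once: the rats came from Envigo at UEF, from in-house breeding at Monash and from Charles River at UCLA, analgesia was buprenorphine at UEF and Monash and flunixin at UCLA, UCLA rats had chow medicated with trimethoprim and sulfamethoxazole, diet and housing differed, and Monash and UCLA plasma was first shipped frozen to UEF, from where the plasma of all sites went frozen to sequencing. These cannot be told apart. Total miRNA counts per rat ran from 1162307 to 5223469, with a median of 2713557.

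A miRNA guides an Argonaute protein to partly matching sites in messenger RNAs, mainly through its seed near the 5′ end, and lowers the output of those messengers. The miR-181 miRNAs come from paired hairpin genes, are plentiful in lymphocytes, brain and vessel lining, and are known for setting the sensitivity of T-cell receptor signalling, damping NF-κB signalling in endothelium, and acting on survival proteins in astrocytes and neurons. The 2 arms of a hairpin give different mature miRNAs with different seeds, and the less used arm is usually degraded.

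The mature sequences are shown because members of 1 family can differ by so little that a short read may count for more than 1 of them. They are RefSeq's on the GRCr8 build, written 5′ to 3′ with the seed, bases 2 to 8, in capitals, and 9 of the 10 members had an entry, while miR-181b-2-3p is named only. The 4 members from the 5p arm share 1 seed.
rno-miR-181a-5p: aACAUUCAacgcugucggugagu
rno-miR-181b-5p: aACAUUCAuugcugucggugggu
rno-miR-181c-5p: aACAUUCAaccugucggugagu
rno-miR-181d-5p: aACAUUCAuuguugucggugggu
The 3p members carry other seeds, and miR-181a-1-3p and miR-181c-3p share one.
rno-miR-181a-1-3p: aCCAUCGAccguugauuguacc
rno-miR-181c-3p: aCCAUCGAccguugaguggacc
rno-miR-181a-2-3p: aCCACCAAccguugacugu
rno-miR-181b-1-3p: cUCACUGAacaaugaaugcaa
rno-miR-181d-3p: cCACCGGGggaugaauguca

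Positions are counted from 1 at the 5′ end. From miR-181b-5p to miR-181d-5p the change is C12U, and from miR-181a-5p to miR-181b-5p it is A9U, C10U and A21G. The sequence of miR-181c-5p is that of miR-181a-5p with a deletion of the G at position 11. From miR-181a-1-3p to miR-181c-3p the changes are U16G and U19G. How reads that match several of these were assigned is not stated, so the split of counts within these pairs is uncertain. Among the 674 of 754 miRNAs of the table with a RefSeq sequence, none outside the family has the seed of a member.

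The genes lie in pairs on the plus strand. Mature miR-181a-5p is encoded at chr13:52037081-52037103 and, with the same sequence, at chr3:43025601-43025623, so its counts cannot be divided between these 2 loci. The miR-181b-5p sequence at chr13:52037263-52037285 starts 182 bases after the first of them. A second miR-181b hairpin is annotated at chr3:43026666-43026753, after the miR-181a hairpin at chr3:43025563-43025679. The miR-181c hairpin gives miR-181c-5p at chr19:40888314-40888335 and miR-181c-3p at chr19:40888353-40888374, and miR-181d-5p at chr19:40888484-40888506 starts 170 bases after miR-181c-5p. These are GRCr8 coordinates, and the authors aligned reads to Rnor_6.0.

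Levels are given in CPM, a miRNA's counts per 1e6 counts of its rat, after TMM scaling, a factor per rat that sets most miRNAs to the same level across rats. A mature miRNA is read whole, so levels were not divided by length. miR-181a-5p, known for raising T-cell receptor sensitivity, had the highest mean level of the family, 1638 CPM ± 463 (SD, n = 29), which ranked 58 of 754 miRNAs and was 62.8% of the family's summed level. miR-181b-5p, known for damping NF-κB signalling in endothelium, followed at 504 CPM ± 187 and rank 88. miR-181d-5p, known in glioma for repressing the DNA repair gene MGMT, had 137 CPM ± 66.7 and rank 171. The order of these 3 held in all 29 rats.

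Below them the order was less firm. miR-181a-1-3p had a mean of 109 CPM ± 47.6 and lay under miR-181d-5p in 17 of 29 rats, so these neighbours did not differ beyond their spread. miR-181c-5p had 63.9 CPM ± 28.5, and miR-181c-3p, from the other arm of its hairpin, 52.5 CPM ± 19.1. In 22 of 29 rats miR-181c-5p exceeded miR-181c-3p. miR-181a-2-3p had 44.1 CPM ± 14.9 and was below miR-181c-3p in 18 of 29 rats, another pair within its spread. miR-181d-3p had 28.6 CPM ± 14.7, miR-181b-2-3p 17.3 CPM ± 9.81 and miR-181b-1-3p 12.3 CPM ± 7.94, and the last 2 kept that order in 18 of 29 rats.

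The counts behind these levels differed widely. miR-181a-5p had a median of 4425 counts per rat, miR-181c-3p 133 with a range of 36 to 333, and miR-181b-1-3p 27 with a range of 4 to 79. At least 10 counts were present in all 29 rats for 8 members, in 28 rats for miR-181b-2-3p and in 27 for miR-181b-1-3p.

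One library stood apart. In UEF sham 3, the liver miRNA miR-122-5p took 55.1% of all counts (95% Wilson interval 55.0 to 55.1%), against 28.1 to 41.3% in the other UEF sham rats, and the 10 members together took 0.0924% (0.0899 to 0.0951%), the lowest share of the 29 rats. Such intervals cover counting error only. Its TMM factor was 0.387, and after that scaling the family's summed level was 2389 CPM, close to the median of all sham rats, 2362 CPM. UEF sham 1, 2 and 4 had 1884, 2202.5 and 1147 CPM, so UEF sham 3 went to the highest of its group. Results are given with this rat, and again without it where a member was called.

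Injury was compared with sham surgery to ask which members differ in plasma once the brain is hurt. miR-181c-3p rose, by 0.69 on the log2 scale, and was the 1 member called among 10. Its hairpin partner miR-181c-5p, best known in heart, where the mature miRNA enters mitochondria and lowers the respiratory subunit mt-Cox1, and miR-181d-5p had higher estimates in injured rats and did not pass the test. miR-181a-5p and miR-181b-5p, which hold most of the family's counts, did not pass the test, with estimates near 1 standard error.

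Levels of miR-181c-3p in the 10 sham rats ran from 24.5 to 58.4 CPM with a median of 36.1. In the 10 TBI− rats they ran from 40.2 to 103 CPM with a median of 63.7, and in the 9 TBI+ rats from 31.8 to 85.6 CPM with a median of 56.6. The groups overlapped: 11 of 19 injured rats lay above the highest sham rat, and 17 of 19 above the sham median.

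At UEF the sham rats had 33.9, 39.2, 33.6 and 24.5 CPM of miR-181c-3p, the TBI− rats 46.6, 74.8, 40.2 and 63.2 CPM, and the TBI+ rats 58.7, 31.8, 55.7 and 33.4 CPM. All 4 TBI− rats and 2 of the 4 TBI+ rats were above each UEF sham rat, and UEF TBI+ 2 and 4 were within the sham range. At Monash the sham rats had 40.6, 58.4 and 27.8 CPM, the TBI− rats 60.4, 103 and 83.5 CPM, and the TBI+ rats 47.5 and 63.3 CPM. Monash sham 2 was high among sham rats, and 4 of 5 injured Monash rats still exceeded it. At UCLA the sham rats had 36.2, 35.9 and 41.9 CPM, the TBI− rats 71.8, 64.2 and 47.6 CPM, and the TBI+ rats 85.6, 63.0 and 56.6 CPM. There 6 of 6 injured rats were above all 3 sham rats. How many of the 744 miRNAs tested separate the groups at UCLA in this way was not counted.

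**Figure D1:**
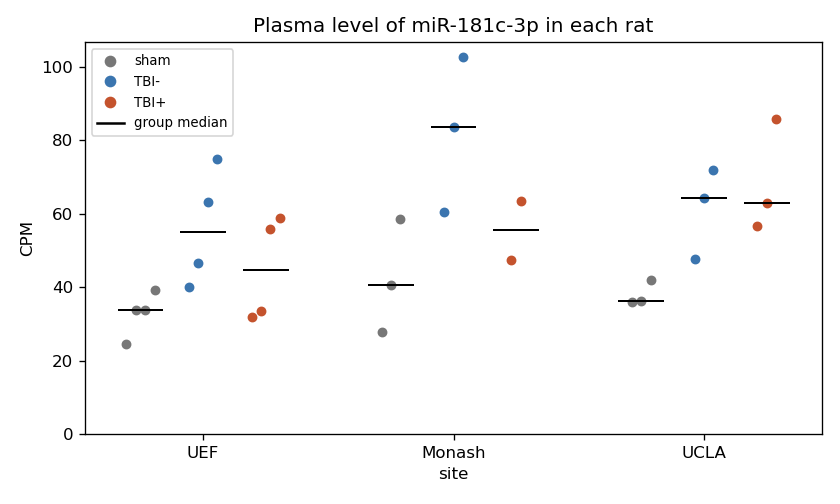
Level of miR-181c-3p (vertical axis, CPM) in each of 29 rats, grouped by site (horizontal axis) and colored by outcome, with a line at each group's median. At UCLA the 6 injured rats sit above 41.9 CPM, the highest sham rat there, while at UEF 2 TBI+ rats sit among the sham rats.

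The log2 fold change of miR-181c-3p from sham to injury was 0.69 (SE 0.16, edgeR quasi-likelihood F test, Benjamini-Hochberg adjusted p = 0.0220 over 744 miRNAs, 17 of 19 injured rats above the sham median). This was 1 of 10 members called, against 8 of 744 miRNAs, or 1.08%, over the table. Without UEF sham 3 the fold change was 0.70 (adjusted p = 0.0380). Within sites it was 0.62 (SE 0.26) at UEF, 0.75 (SE 0.31) at Monash and 0.77 (SE 0.30) at UCLA. None of these passed the test alone (adjusted p = 0.209, 0.507 and 0.349). Of all 744 miRNAs, 28 were called at UEF, 0 at Monash and 2 at UCLA. At Monash no miRNA passed, so the missing call there does not set miR-181c-3p apart. The call was lost without Monash TBI− 2 (0.62, adjusted p = 0.0617), without any 1 of the sites (adjusted p = 0.468 without UEF, 0.0645 without Monash, 0.152 without UCLA), with DESeq2's size factors (0.65, adjusted p = 0.0637), and with a red cell covariate (0.46, adjusted p = 0.409). Across the alternative settings other than leaving out single rats the adjusted p ran from 0.0104 to 0.468.

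Red cell miRNAs had higher levels in injured rats without passing the test. The log2 ratio of miR-451-5p, a red cell miRNA, to miR-23a-3p, a common measure of hemolysis, had a median of −2.90 in sham and −2.34 in injured rats. The Red cell list (miR-451-5p, miR-144-3p, miR-144-5p, miR-486 and miR-16-5p) had a summed median of 200219 CPM in sham and 306423 CPM in injured rats, most of it miR-16-5p. None of its 5 miRNAs was at 0 in any rat, 0 of 5 passed the test in either direction, and their median log2 fold change was 0.62 beside 0.05 over the 744 tested. Adding the ratio to the model left the estimate of miR-181c-3p at 0.46, as given above. How far red cell content enters the change of miR-181c-3p was not tested beyond that covariate. In plasma, fewer cells of a type that release a miRNA and less RNA per cell cannot be told apart.

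miR-181d-5p, encoded next to miR-181c, had 32.6 to 202 CPM in sham rats (median 105) and 69.4 to 296 CPM in injured rats (median 116). The ranges overlapped widely over all sites, with 12 of 19 injured rats above the sham median. At UEF 7 of 8 injured rats were above all 4 sham rats, at Monash 2 of 5 were above all 3 and 2 of 5 below all 3, and at UCLA 4 of 6 were above all 3. Its log2 fold change was 0.62 (SE 0.21, edgeR adjusted p = 0.161, 12 of 19), which fails the correction, and the site estimates were 0.94 (SE 0.33) at UEF, 0.16 (SE 0.37) at Monash and 0.70 (SE 0.37) at UCLA.

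miR-181c-5p had 31.9 to 111 CPM in sham rats (median 46.6) and 30.8 to 137 CPM in injured rats (median 60.1). The injured range spans the whole sham range, and 15 of 19 injured rats lay above the sham median. Its log2 fold change was 0.47 (SE 0.22, edgeR adjusted p = 0.374, 15 of 19), which also fails the correction.

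miR-181a-5p had 706 to 2126 CPM in sham rats (median 1521) and 1025 to 2835 CPM in injured rats (median 1581). miR-181b-5p had 195 to 754 CPM in sham rats (median 452) and 271 to 1035 CPM in injured rats (median 485). Both overlapped between the groups, with 4 of 19 injured rats above every sham rat for each. At UCLA 5 of 6 injured rats exceeded all 3 sham rats for miR-181a-5p and 3 of 6 for miR-181b-5p. At UEF 3 of 8 exceeded all 4 sham rats for each. At Monash 0 of 5 exceeded all 3 for miR-181a-5p and 1 of 5 for miR-181b-5p. The log2 fold changes were 0.17 (SE 0.16, edgeR adjusted p = 0.815, 12 of 19 above the sham median) for miR-181a-5p and 0.15 (SE 0.18, adjusted p = 0.869, 13 of 19) for miR-181b-5p. A p that misses the threshold does not show that they did not differ.

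The remaining members ranged in log2 fold change from −0.23 for miR-181a-2-3p to 0.34 for miR-181b-2-3p. Over all 10 members 9 estimates were positive, with a median of 0.22 beside 0.05 over the 744 miRNAs tested, and that of miR-181a-1-3p, 0.08, turned to −0.30 with the red cell covariate, to −0.02 with at least 10 counts required in each rat and to −0.02 without UCLA. The estimate of miR-181d-3p, 0.13, turned to −0.16 without UCLA. At an unadjusted p under 0.05 there were 3 members, miR-181c-3p, miR-181d-5p and miR-181c-5p, and 85 of 744 miRNAs (11.4%).

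The 2 arms of the miR-181c hairpin were compared within each rat, where scaling between rats has no part. The ratio of miR-181c-3p to miR-181c-5p counts had a median of 0.732 in sham rats (0.525 to 1.13), 0.938 in TBI− rats (0.589 to 1.75) and 0.790 in TBI+ rats (0.574 to 1.03). The 3p arm exceeded the 5p arm in 7 of 29 rats, of which 5 were TBI−, 1 TBI+ and 1 sham, and the ranges overlapped. In the miR-181d hairpin the median ratio of 5p to 3p counts was 5.46. The median ratio was 15.3 for miR-181a-5p to miR-181a-1-3p and 43.3 for miR-181b-5p to miR-181b-1-3p, but miR-181a-5p has 2 hairpins and a second miR-181b gene is annotated, so these 5p counts may come from 2 hairpins and the ratios are not those of 1.

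Each outcome was also compared with sham. Both comparisons use the same 10 sham rats, so they are not independent and their values stand side by side. In TBI− rats miR-181c-3p rose by 0.81 on the log2 scale (SE 0.18, edgeR adjusted p = 0.0286, 10 of 10 TBI− rats above the sham median), 1 of 10 members called against 3 of 744 miRNAs (0.403%). Without UEF sham 3 the value was 0.82 (adjusted p = 0.0469). The call was often lost when 1 rat was left out: it was kept in 13 of 29 such fits, and the adjusted p reached 0.201 without Monash TBI− 2. The other rats whose removal ended it were UEF sham 1 and 4, UEF TBI− 2, 3 and 4, Monash sham 1 and 3, Monash TBI− 1 and 3, Monash TBI+ 1 and 2, UCLA sham 1, 2 and 3, and UCLA TBI− 1, with fold changes within 0.69 to 0.88 over all 29 such fits. Of 14 other settings 2 kept the call, with adjusted p from 0.0160 to 0.942.

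In TBI+ rats the log2 fold change of miR-181c-3p was 0.58 (SE 0.18, edgeR adjusted p = 0.180). 0 of 10 members were called by edgeR and 0 by DESeq2, and among all tested, 4 of 744 miRNAs (0.538%) were called. At an unadjusted p under 0.05 there were 2 members and 59 of 744 miRNAs (7.93%). miR-181d-5p had 0.68 (SE 0.24, adjusted p = 0.246) in TBI− and 0.57 (SE 0.25, adjusted p = 0.501) in TBI+ rats. miR-181c-5p had 0.49 (SE 0.24) and 0.46 (SE 0.25). The difference between outcomes was tested on its own, since a call in TBI− and none in TBI+ does not show one.

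**Figure D2:**
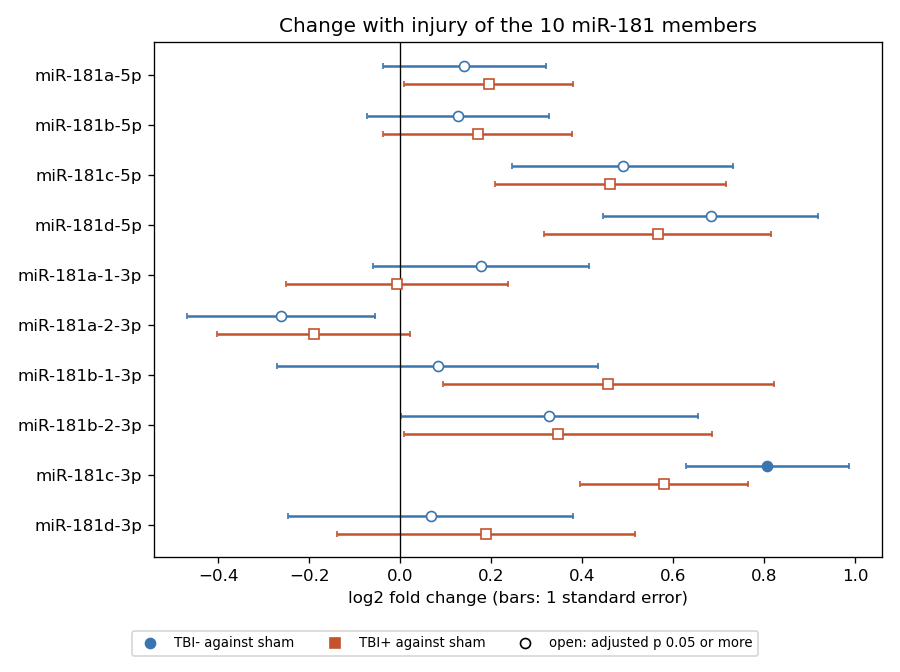
Log2 fold change against sham (horizontal axis, bars of 1 standard error) of each of the 10 members (vertical axis) in TBI− rats (circles, n = 10) and TBI+ rats (squares, n = 9), both against the same 10 sham rats. The filled symbol is the value past the threshold, miR-181c-3p in TBI− rats at 0.81, and open symbols did not pass.

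TBI+ was compared with TBI− to ask whether a member tells at 48 h which injured rats later have epilepsy. 0 of 10 members were called by edgeR and 0 by DESeq2, none had an unadjusted p under 0.05, and 0 of 744 miRNAs (0%) were called, with 15 (2.02%) at an unadjusted p under 0.05. The log2 fold change of miR-181c-3p from TBI− to TBI+ was −0.23 (SE 0.18, adjusted p = 1.00), with 8 of 9 TBI+ rats not above the TBI− median. The members ranged from −0.23 to 0.38, with a median of 0.03 beside 0.01 over the table. The highest, miR-181b-1-3p at 0.38 (SE 0.36), is the scarcest member.

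Whether injury acts unlike at the 3 sites was tested as an interaction of site and injury, with TBI− and TBI+ rats joined. 0 of 10 members were called by edgeR and 0 by DESeq2, and 3 of 744 miRNAs (0.403%) were called. At an unadjusted p under 0.05 there were 0 members and 96 of 744 miRNAs (12.9%). The adjusted p of miR-181c-3p was 0.955, beside site estimates of 0.62, 0.75 and 0.77, and that of miR-181d-5p was 0.625, beside 0.94, 0.16 and 0.70. With 3 or 4 sham rats and 5 to 8 injured rats at a site, the design leaves wide intervals on these differences.

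Sites were compared with outcome in the model, to ask how much the level of a member depends on where the rat was kept and sampled. miR-181a-5p, miR-181b-5p and miR-181d-5p were lower at UEF than at UCLA, by −0.63 to −0.85 on the log2 scale, and miR-181d-5p was also lower at UEF than at Monash, by −1.002. Of the other members of the 5p arm, miR-181c-5p had the same sign and did not pass. Of the 6 members of the 3p arm, miR-181a-2-3p and miR-181b-2-3p had estimates of the opposite sign against UCLA. The other 4, with miR-181b-1-3p at −0.88 and miR-181a-1-3p at −0.58 among them, had the same sign as the 5p arm and did not pass. With 1 rat left out, miR-181a-1-3p passed against UCLA in 1 of 29 fits (edgeR adjusted p from 0.00970 to 0.275) and miR-181b-1-3p in 0 of 29.

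miR-181a-5p had 706 to 1741 CPM at UEF (median 1340), 1060 to 2126 CPM at Monash (median 1589) and 1510 to 2835 CPM at UCLA (median 2072). UEF and UCLA overlapped little: 8 of 12 UEF rats lay below every UCLA rat, and 0 of 12 above the UCLA median. miR-181b-5p had 195 to 511 CPM at UEF (median 343), 336 to 830 CPM at Monash (median 486) and 452 to 1035 CPM at UCLA (median 629). Again 8 of 12 UEF rats lay below every UCLA rat and 0 of 12 above the UCLA median. miR-181d-5p had 32.6 to 187 CPM at UEF (median 90.1), 84.7 to 296 CPM at Monash (median 172) and 98.6 to 253 CPM at UCLA (median 133). In 9 of 12 UEF rats it was below every UCLA rat, and in 5 of 12 below every Monash rat.

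**Figure D3:**
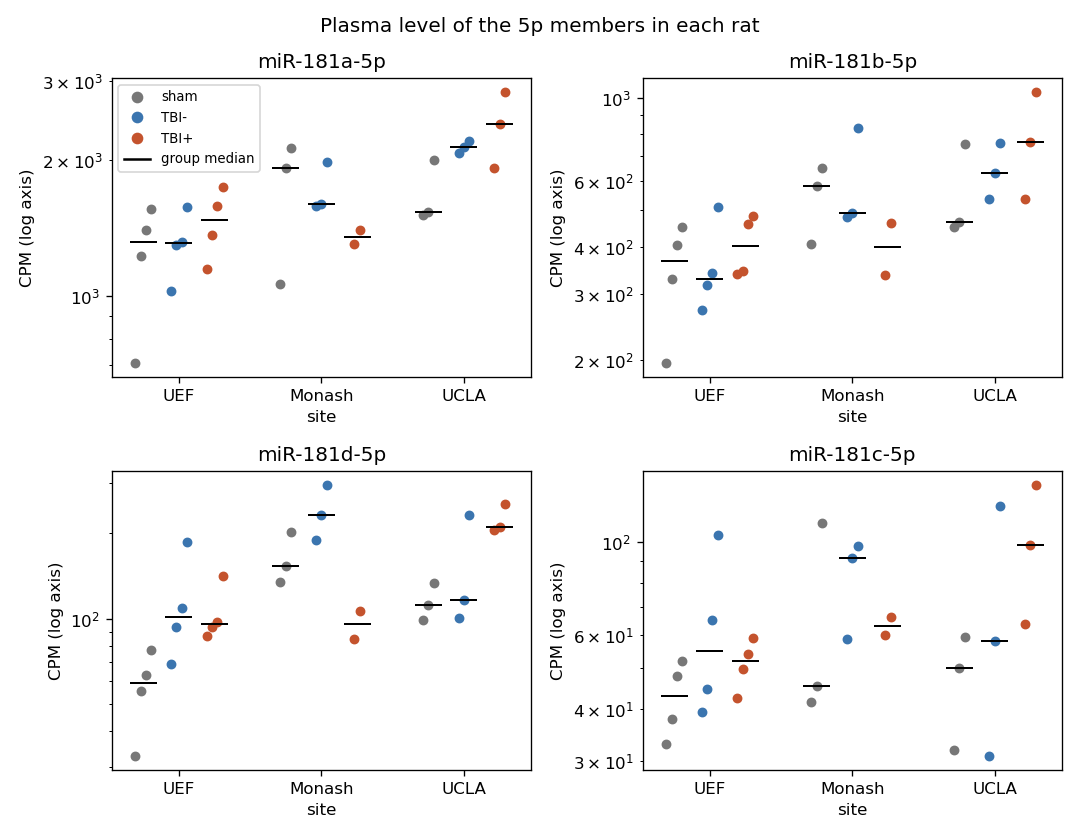
Level (vertical axis, CPM, log axis) of the 4 members of the 5p arm in each of 29 rats, by site (horizontal axis) and outcome (color), with a line at each group's median. For miR-181a-5p and miR-181b-5p, 0 of 12 UEF rats reach the UCLA median.

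Over the 3 sites together 3 of 10 members were called, against 107 of 744 miRNAs (14.4%). They were miR-181d-5p (edgeR adjusted p = 0.00720), miR-181b-5p (adjusted p = 0.0111) and miR-181a-5p (adjusted p = 0.0329), whose sizes follow pair by pair. Without UEF sham 3 there were 4, with miR-181a-1-3p added, which had stood just outside the threshold (adjusted p = 0.0502).

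Between UEF and UCLA 3 of 10 members were called, all lower at UEF, against 73 of 744 miRNAs (9.81%). The log2 fold change was −0.82 for miR-181b-5p (SE 0.20, edgeR adjusted p = 0.00511, 12 of 12 UEF rats below the UCLA median). It was −0.63 for miR-181a-5p (SE 0.18, adjusted p = 0.0170, 12 of 12) and −0.85 for miR-181d-5p (SE 0.23, adjusted p = 0.0161, 9 of 12 below every UCLA rat). Without UEF sham 3 these were −0.87, −0.67 and −0.84 (adjusted p = 0.00313, 0.00944 and 0.0202). The call of miR-181a-5p was lost without UEF TBI− 1 (adjusted p = 0.0534) and without UEF TBI− 3 (adjusted p = 0.0612), the highest of 29 fits with 1 rat left out, which began at 0.00944.

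These site differences were looked at within each surgery. In injured rats the log2 fold changes from UCLA to UEF were −0.71 for miR-181a-5p, −0.89 for miR-181b-5p and −0.77 for miR-181d-5p (edgeR adjusted p = 0.0339, 0.0183 and 0.0924). In sham rats they were −0.46, −0.69 and −0.999 (adjusted p = 0.466, 0.253 and 0.133). All 6 estimates had the same sign, and 2 of them passed, those of miR-181a-5p and miR-181b-5p in injured rats. These 2 passed without UEF sham 3 too (adjusted p = 0.0251 and 0.0141). In the same fit 47 of 744 miRNAs were called in injured rats and 40 of 744 in sham rats. Without UEF sham 3, 50 of 744 were called in injured rats. Over both surgeries together 8 of the 10 members had negative estimates, with a median of −0.51 beside 0.06 over the 744 miRNAs tested.

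Between UEF and Monash 1 of 10 members was called, against 57 of 744 miRNAs (7.66%). It was miR-181d-5p at −1.002 (SE 0.24, edgeR adjusted p = 0.0140, 11 of 12 UEF rats not above the Monash median), and −0.99 without UEF sham 3 (adjusted p = 0.0194). In sham rats miR-181d-5p was at −1.51 (adjusted p = 0.0318). That call was lost without UEF sham 3 (−1.56, adjusted p = 0.0924), a fit added after seeing the data. Of all 744 miRNAs, 17 were called in sham rats, and 2 without UEF sham 3. The lost call thus went with fewer calls among all miRNAs, and the fold change did not shrink. In injured rats miR-181d-5p was at −0.73 (adjusted p = 0.223), with 12 of 744 miRNAs called. miR-181d-5p took 4.92% of the family's 5p counts at UEF on average, 7.35% at Monash and 5.49% at UCLA. The largest estimate in the other direction was 0.96 for miR-181b-2-3p (SE 0.34, adjusted p = 0.0739), which had 6.43 to 46.0 CPM at UEF (median 22.3) and 3.48 to 21.9 CPM at Monash (median 11.1). This member passed the test without Monash TBI− 2 (adjusted p = 0.0471), without Monash TBI+ 2 (0.0212) and without UCLA sham 3 (0.0497), with 0.0212 to 0.150 over the 29 fits with 1 rat left out.

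Between Monash and UCLA 0 of 10 members were called by edgeR, against 42 of 744 miRNAs (5.65%), and 1 by DESeq2, against 59 of 735. At an unadjusted p under 0.05 in edgeR there were 1 member and 139 of 744 miRNAs (18.7%). That member was miR-181a-1-3p at −0.84 (SE 0.26, adjusted p = 0.0546). It had 50.7 to 133 CPM at Monash (median 74.5) and 98.7 to 214 CPM at UCLA (median 147). In 6 of 8 Monash rats it was below every UCLA rat. It passed the test without Monash sham 2 (adjusted p = 0.0153), UCLA sham 2 (0.0468), UCLA TBI− 3 (0.0364), UEF sham 4 (0.0347) or UEF TBI− 2 (0.0175), with 0.0153 to 0.128 over the 29 such fits.

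**Figure D4:**
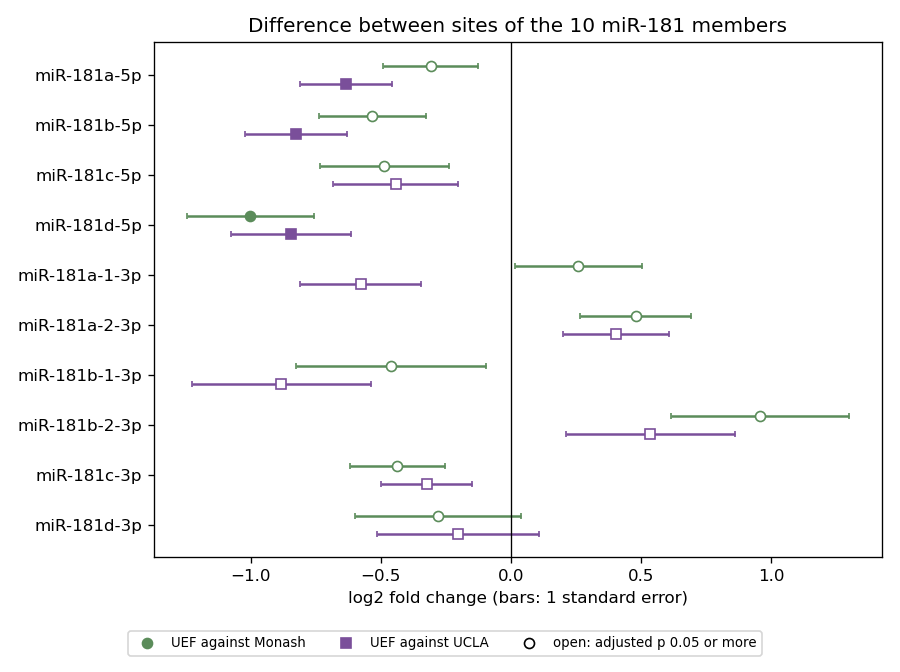
Log2 fold change (horizontal axis, bars of 1 standard error) of each of the 10 members (vertical axis) for UEF against Monash (circles) and UEF against UCLA (squares), which share the 12 UEF rats. Filled symbols passed the threshold: miR-181d-5p in both, and miR-181a-5p and miR-181b-5p against UCLA.

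Marker miRNAs of cells and tissues that release RNA into plasma differed between sites as well. Of all 744 miRNAs, 40 (5.38%) were called higher and 33 (4.44%) lower at UEF than at UCLA. Against Monash 17 (2.28%) were called higher and 40 (5.38%) lower at UEF. A single call in a short list is to be read beside these shares. The White cell list of 7, which holds miR-150-5p and miR-155-5p of lymphocytes and miR-223-3p of myeloid cells, its most abundant, had a summed median of 91237 CPM at UEF, 125432 CPM at Monash and 114381 CPM at UCLA. Against UCLA 0 of 7 were higher and 1 lower at UEF, miR-155-5p at −0.75, with a median of −0.52, close to that of the 10 members. Against Monash 0 of 7 were higher and 2 lower, with a median of −0.34. The Liver list of 4 was higher at UEF than at UCLA in 4 of 4 (median 2.27), and summed to a median of 150500 CPM at UEF and 19680 CPM at UCLA, most of it miR-122-5p. The Muscle list, 4 names counted as 3 miRNAs, was higher at UEF than at UCLA in 3 of 3 (median 2.94), and of the Platelet and vessel list of 4, led by miR-143-3p, 2 were higher and 0 lower (median 0.92). The Red cell list had 0 of 5 called against UCLA (median −0.26), with a summed median of 233649 CPM at UEF and 379025 CPM at UCLA. The Brain list had 0 higher and 1 lower of 11 (median 0.19), miR-128-3p at −0.82 (SE 0.23, edgeR adjusted p = 0.0170). Its summed median, most of it miR-128-3p, was 5838 CPM at UEF and 11433 CPM at UCLA. Against Monash the Liver list had 1 higher and 0 lower of 4 at UEF (median 1.29), and the Brain list 1 higher and 0 lower of 11 (median 0.13). The Red cell list had 0 of 5 called there (median −0.24), the Platelet and vessel list 0 of 4 (median −0.04) and the Muscle list 0 of 3 (median −1.33). No miRNA of these 6 lists was at 0 in any rat. The part of these cells and tissues in the site differences of miR-181a-5p, miR-181b-5p and miR-181d-5p was not tested.

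The same lists are given for injury against sham, where 5 of 744 miRNAs (0.672%) were called higher and 3 (0.403%) lower in injured rats. Of the Brain list of 11, 2 were higher and 0 lower: miR-128-3p, a neuronal miRNA and the most abundant of the list, at 1.00 (SE 0.21, edgeR adjusted p = 0.0161), and miR-129-5p at 0.94 (SE 0.21). The Brain list had a median log2 fold change of 0.36. Its summed median was 4613 CPM in sham and 8899 CPM in injured rats, most of it miR-128-3p. The Liver list had 0 higher and 1 lower of 4, miR-122-5p at −1.57, with a median of −1.20. The White cell list had 0 of 7 called (median 0.16), the Platelet and vessel list 0 of 4 (median −0.33) and the Muscle list 0 of 3 (median 0.43). The part of brain and liver miRNAs in the change of miR-181c-3p was not tested.

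How members move together over the 29 rats was described by Spearman's rho of log2 CPM, with no test, since rats share sites, outcomes and scaling, and near-identical members may share reads. miR-181a-5p and miR-181b-5p are encoded 182 bases apart on chromosome 13, and a gene of each is annotated on chromosome 3 too. They had a rho of 0.95, and 0.92 after the mean of each site and outcome group was subtracted. miR-181c-5p and miR-181d-5p, encoded 170 bases apart on chromosome 19, had 0.71, and 0.79 within groups. Between these pairs the values were lower: miR-181a-5p with miR-181d-5p had 0.62 over all rats and 0.17 within groups, and with miR-181c-5p 0.44 and 0.21. The highest over all rats was that of miR-181b-5p with miR-181d-5p, which differ by C12U, at 0.67 and 0.15 within groups. For miR-181b-5p with miR-181c-5p the values were 0.45 and 0.20.

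The arms of a hairpin did not always follow each other. miR-181a-1-3p followed miR-181a-5p with a rho of 0.69 (0.78 within groups) and miR-181c-3p followed miR-181c-5p with 0.71 (0.57 within groups). miR-181d-3p and miR-181d-5p had 0.16 (−0.09 within groups), and miR-181a-2-3p and miR-181a-5p −0.27 (0.05 within groups). miR-181c-3p and miR-181a-1-3p, which share a seed and differ at U16G and U19G, had 0.44, and 0.74 within groups. miR-181b-2-3p had negative values with all 4 members of the 5p arm, from −0.45 to −0.49 over all rats.

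**Figure D5:**
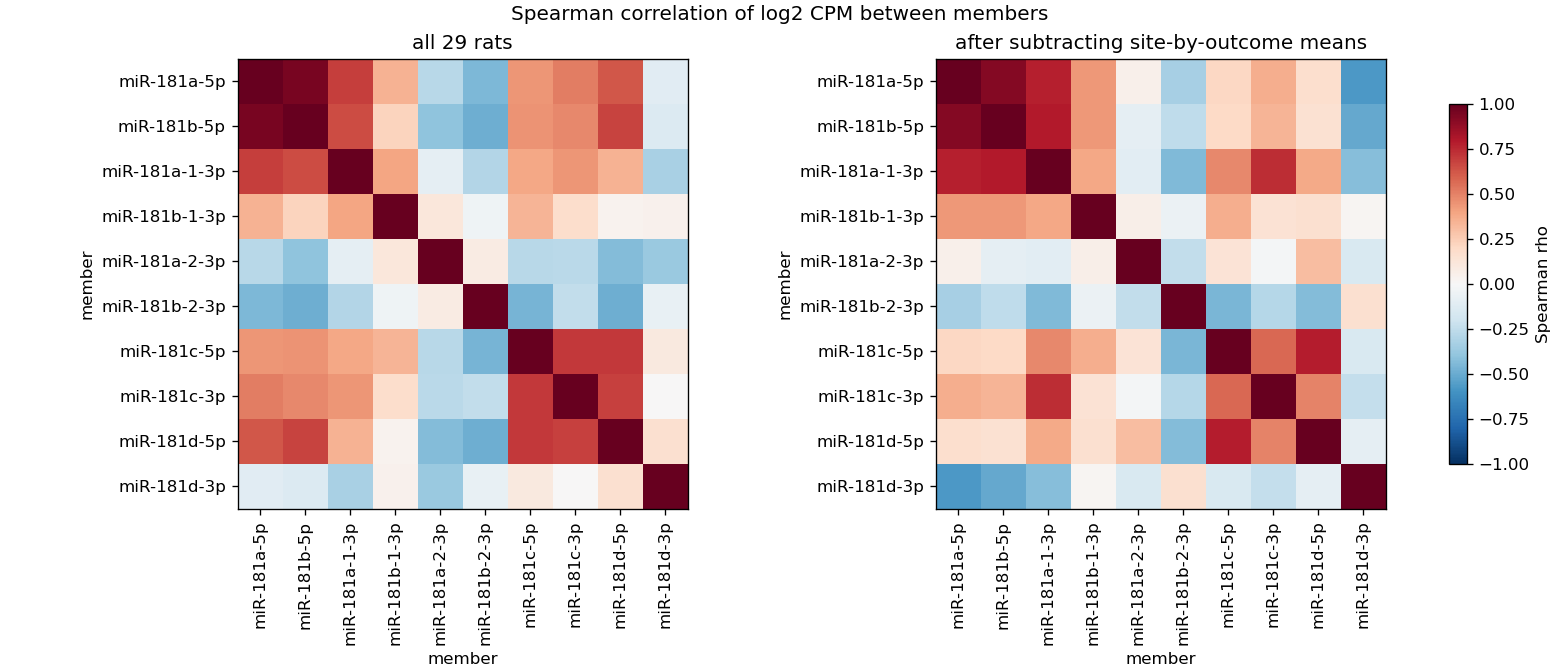
Spearman's rho of log2 CPM between members (both axes list the 10 members, ordered by hairpin) over all 29 rats at left and after subtracting the mean of each site and outcome group at right, and color gives rho. Red blocks join miR-181a-5p to miR-181b-5p (0.95 and 0.92) and miR-181c-5p to miR-181d-5p (0.71 and 0.79).

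The miRNAs outside the family most like miR-181a-5p, its most abundant member, were found among 734. Over all 29 rats they were miR-503-5p (rho 0.79), miR-16-5p (0.79), miR-140-3p (0.78), miR-361-5p (0.78) and miR-16-3p (0.78), beside a median of −0.13. Within site and outcome groups they were miR-361-5p (0.80), miR-365-3p (0.70), miR-140-3p (0.70), miR-3553 (0.68) and miR-503-5p (0.66), beside a median of −0.12. Of these 7 miRNAs, miR-140-3p and miR-503-5p also differed between UEF and UCLA, by −2.39 and −1.71 on the log2 scale (edgeR adjusted p = 4.33e-07 for both), and the other 5 did not pass. Of those 5, miR-365-3p had the opposite sign, at 0.67 (adjusted p = 0.0821), and at 0.96 between UEF and Monash (adjusted p = 0.0208).

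The miRNAs most like miR-181c-3p were looked up after its values were seen. Over all rats they were miR-191a-5p (0.76), miR-128-3p (0.76), miR-425-5p (0.75), miR-451-5p (0.73) and miR-15b-5p (0.72), and within groups miR-15a-5p (0.87), miR-15b-5p (0.83), miR-196b-5p (0.77), miR-451-5p (0.76) and miR-3556b (0.75). The red cell miRNA miR-451-5p is in both sets, and it had a log2 fold change from sham to injury of 0.66 (SE 0.35, edgeR adjusted p = 0.516). The part of red cells in the level of miR-181c-3p was not tested further.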

How the data were processed

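The authors had QIAseq small RNA libraries made from plasma, trimmed reads with cutadapt, aligned them with Bowtie to Rnor_6.0 and named them by miRBase. The table the authors deposited gives whole-number counts for 754 miRNAs in 29 rats; whether reads of 1 molecule were merged is not stated. Members and all other miRNAs were fitted together in R 4.3.3 by edgeR 4.0.16 with limma 3.58.1, after filterByExpr (10 counts at least) and TMM scaling, with a quasi-likelihood F test in a model of site and outcome, Benjamini-Hochberg adjustment over 744 miRNAs and a threshold of 0.05; miRNAs past it are termed called. The TBI contrast is the mean of TBI− and TBI+ against sham. The interaction, and the tests within a site or a surgery, used models of site and injury with TBI− and TBI+ joined. Log2 CPM used a prior count of 2. The procedure was tested on simulated data. Named genes are all members, the 5 most correlated with the most abundant member over all rats and within groups, and the listed marker miRNAs (White cell, Platelet and vessel, Red cell, Brain, Liver, Muscle). Those like miR-181c-3p were chosen after values were seen. The members and lists were chosen with earlier results of these data known. Alternatives were DESeq2 1.42.0, its size factors, upper-quartile factors, scaling to miR-28-3p, miR-122-5p left out, 2 other low-count filters, a red cell covariate, site left out, injury in 2 levels, sham or TBI rats alone, each site or rat left out, a replicate block and, added after seeing the data, a filter on the model matrix.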

Additional observations from a re-analysis of the deposited data

Results flagged for a closer look

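A rat was picked out when its gap to the nearest other rat was large beside the range of its group, tested in 80 groups of 4 to 10 rats over the 10 members. Chance picks out about 1 in 20 such groups if levels follow a normal curve, and 6 were found, in 5 members. The groups share rats and so are not independent, and whether 6 exceeds chance was not tested. Monash sham 2 was the highest of 10 sham rats for miR-181c-3p, with 58.4 CPM against 41.9 CPM in the next, and for miR-181c-5p, with 111 CPM against 59.5 CPM in the next. The same rat had the highest log2 ratio of miR-451-5p over miR-23a-3p of the 10 sham rats, −1.33. UCLA TBI+ 2 was the highest for miR-181d-3p, with 81.8 CPM against 40.2 CPM in the next of 9 TBI+ rats and 32.5 CPM in the next of 9 UCLA rats. UEF TBI+ 4 was the highest of 9 TBI+ rats for miR-181b-2-3p, with 46.0 CPM against 24.5 CPM in the next. Monash TBI+ 2 was the highest of 8 Monash rats for miR-181b-1-3p, with 36.7 CPM against 18.6 CPM in the next. None of these was tested for a cause.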

How the results depend on the processing

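The counts of members called depended on the processing as follows; the cause was not tested. For TBI against sham the count of 1 went to 0 with DESeq2's size factors, with the red cell covariate, and without UEF, without Monash or without UCLA, and was 0 to 1 with single rats left out. For TBI− against sham the count of 1 went to 0 with at least 10 counts in every rat, DESeq2's size factors, the filter on the model matrix (added after seeing the data), miR-122-5p left out, no filter, the red cell covariate, scaling to miR-28-3p, site left out of the model, and without each site, and was 0 to 1 with single rats left out. Over the 3 sites the count of 3 was 5 with DESeq2, 1 with only sham rats and 0 with only TBI rats, and 2 to 4 with single rats left out. For UEF against Monash the count of 1 was 2 with DESeq2, the filter on the model matrix and no filter, 0 in TBI rats alone, and 1 to 2 with single rats left out. For UEF against UCLA the count of 3 was 0 in sham rats alone, 2 in TBI rats alone, and 2 to 4 with single rats left out. For Monash against UCLA the count of 0 was 1 with at least 10 counts in every rat, DESeq2, scaling to miR-28-3p and upper-quartile factors, and 0 to 1 with single rats left out. TBI+ against TBI−, TBI+ against sham and the interaction had 0 members called in every setting run. No estimate listed for a called member changed sign in any setting. Without UEF sham 3, a fit added after seeing the data, the count of 1 for UEF against Monash within sham rats went to 0. The count of 2 for UEF against UCLA within TBI rats stayed 2. Among all 744 miRNAs the calls went from 17 to 2 in the first and from 47 to 50 in the second.

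With the replicate number as a block the counts were 1 for TBI against sham, 0 for TBI−, 0 for TBI+, 0 for TBI+ against TBI−, 2 for the 3 sites, 0 for UEF against Monash, 1 for UEF against UCLA, 1 for Monash against UCLA and 0 for the interaction. The numbers do not pair the rats: the mean correlation of residuals over 28 pairs with the same number in a site was −0.03 (−0.45 to 0.41), and over 68 other pairs 0.01.

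Over the table, TBI against sham called 8 miRNAs, 17 under the filter of 10 counts per rat, 25 with DESeq2, 4 with the covariate, 14 without site, 21 without Monash, 14 without UCLA, 0 without UEF and 3 to 14 without single rats. TBI− called 3, and 0, 1 or 20 (DESeq2) elsewhere, 1 to 5 without single rats. TBI+ called 4, 12 with DESeq2, 0 or 8 without a site, 1 to 6 without single rats. The 3 sites called 107, 65 in sham and 36 in TBI rats. UEF against Monash called 57, 108 with DESeq2, 30 with the block, 17 scaled to miR-28-3p, 29 in sham and 0 in TBI rats alone, 35 to 116 without single rats. UEF against UCLA called 73, 47 in sham and 39 in TBI rats. Monash against UCLA called 42, 24 in TBI rats. The interaction called 3, 17 with DESeq2, 0 to 10 without single rats. The median fold change of all miRNAs shifted by 0.13 scaled to miR-28-3p (TBI+ against TBI−), by −0.15 without Monash and −0.10 with 10 counts in every rat (TBI+ against sham), and in sham rats alone by 0.13, −0.14 and −0.12 for the site pairs. At least 10 counts in every rat left 8 members tested, and sham rats alone 7.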
